A study of Mus musculus with 4 samples.

Results

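The cells described here are 486 of 8883 bone marrow progenitors (5.47%), chosen by their measured transcripts of Il7r and Ly6d. They were drawn from lymphoid-primed multipotent progenitors (LMPPs) that had been sorted from C57BL/6 mice and sequenced in 10x Genomics droplets. A cell was taken when its unique molecular identifiers (UMIs, 1 for each captured transcript) summed to 2 or more over Il7r and Ly6d and to 0 over Cd79a and Vpreb3, a pair of genes of committed B cell precursors. These cells are called gated cells below, and the other 8397 are called remaining cells. The 4 groups differ in RBPJ, the DNA-binding partner of activated Notch. By their labels, control mice had RBPJ throughout, uninduced mice lacked it, and the mice of the last groups began without RBPJ and were induced to express it with doxycycline, for 3 days in one group and 6 days in the other. Doxycycline was injected at 2 mg/ml and then supplied at 1 mg/ml in drinking water, and the treatment text stands in the labels of all 4 libraries, so it does not show whether control and uninduced mice received it. Each group is 1 library, the number of mice behind it is not given in the sources used here, and neither is the promoter or Cre line that removes or restores Rbpj. With 1 library for each group no test between groups was possible, and all intervals are at 95% and cover counting error only.

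IL-7 receptor alpha, encoded by Il7r, is the cytokine receptor chain that marks the common lymphoid progenitor stage, where LMPPs have lost most myeloid potential. Ly6d is a small membrane-anchored surface protein that separates common lymphoid progenitors already inclined to the B lineage from those that still give rise to T, NK and dendritic cells. In the B lineage the E proteins and EBF1 switch on the early B cell programme, whereas Notch signalling through RBPJ directs lymphoid progenitors towards the T lineage and switches on Hes1.

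Gated cells numbered 172 of 2693 control cells, 115 of 2769 uninduced cells, 42 of 1292 cells at 3 days and 157 of 2129 cells at 6 days. The shares were 6.39% (exact binomial interval 5.49 to 7.38), 4.15% (3.44 to 4.96), 3.25% (2.35 to 4.37) and 7.37% (6.30 to 8.57) in that order. The uninduced and 3-day libraries had the lower shares, and their intervals did not overlap those of the control and 6-day libraries, while the intervals within each of these pairs did. Depth bears on these shares, because a cell with more UMIs passes the gate more easily. The median gated cell held 12110.5, 10880, 11271.5 and 11292 UMIs in control, uninduced, 3-day and 6-day libraries, against 7613, 6636.5, 7558.5 and 6985.5 in remaining cells. After every cell was thinned to 4700 UMIs and gated again, leaving out 351, 676, 204 and 374 shallower cells, the shares were 2.52% (1.92 to 3.24), 2.25% (1.65 to 2.98), 1.65% (0.983 to 2.60) and 3.93% (3.07 to 4.95). At equal depth the 6-day share was still the highest, and the intervals of control and uninduced cells overlapped.

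**Figure D1:**
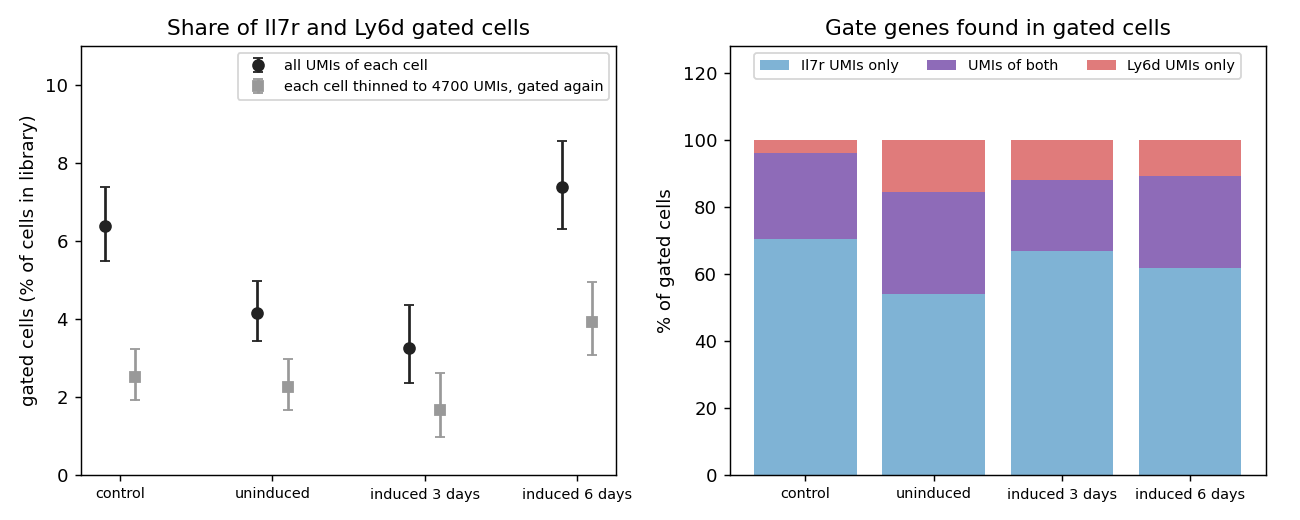
Left, the share of each library's cells that passed the gate (%, vertical axis) with 95% exact binomial intervals, from all UMIs (black) and after thinning each cell to 4700 UMIs (grey). Right, the percentage of gated cells with UMIs of Il7r only, of both genes or of Ly6d only; the Il7r-only share was 70.3% in control and 53.9% in uninduced cells.

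The gate was mostly carried by Il7r. Of the 486 gated cells 308 (63.4%) held Il7r UMIs only, 131 (27.0%) held both and 47 (9.67%) held Ly6d only. A Ly6d UMI was present in 29.7% of gated control cells (22.9 to 37.1), 46.1% of uninduced cells (36.8 to 55.6), 33.3% of 3-day cells (19.6 to 49.5) and 38.2% of 6-day cells (30.6 to 46.3). The control and uninduced intervals touched only at their ends. Among the fewer cells that passed the gate again after thinning to 4700 UMIs, the same shares were 42.4% (25 of 59), 68.1% (32 of 47), 50% (9 of 18) and 49.3% (34 of 69). The uninduced library was again the highest, and all 4 intervals overlapped. In CPM (the UMIs of a gene scaled to a total of 1e+06 UMIs), the gated cells held Il7r at 204, 167, 213 and 190 and Ly6d at 88.6, 307, 183 and 185, which the gate fixes in part and which are therefore descriptions. The 2 genes were spread over cells very differently. The 10 gated cells richest in Ly6d held 57.4%, 60.6%, 94.0% and 47.1% of all its gated UMIs, and a single cell reached 53 UMIs, whereas no gated cell had more than 10 UMIs of Il7r. Cells with 8 or more Ly6d UMIs numbered 5, 18, 5 and 17, and 13 of these 45 had no Il7r UMI.

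Il7r lies on mouse chromosome 15 (GENCODE vM21, GRCm38, chr15:9505788-9530176, minus strand) and Ly6d on the same chromosome (chr15:74762056-74763620, minus strand). Barcodes of 10 to 100 UMIs, which hold free RNA, had Il7r at 25.0, 15.1, 22.2 and 41.1 CPM and Ly6d at 23.2, 23.7, 3.17 and 28.6 CPM. These levels were below those of gated cells, and for Il7r they were above the 9.60, 8.51, 6.67 and 13.5 CPM of remaining cells in each library. The gate itself raises the level of gated cells and lowers that of remaining cells, so this order carries no information on free RNA. The part of free RNA in passing the gate was not tested. Between 2 and 17 cell barcodes were shared by any pair of libraries, and 2 gated cells, 1 uninduced and 1 at 6 days, carried such a barcode. Doublets were kept and no doublet caller was run. Cells just outside the gate, with 1 UMI, numbered 204, 176, 73 and 195, and those just inside, with exactly 2, numbered 79, 53, 19 and 65. Just outside and just inside, Dntt stood at 1356 and 1455 CPM in control, 1156 and 1414 in uninduced, 1443 and 1616 at 3 days and 1357 and 1447 at 6 days. Dntt was therefore slightly higher inside the gate in each library. A further 45 cells (9, 15, 4 and 17) reached 2 gate UMIs but were left out for Cd79a or Vpreb3, and these held Ebf1 at 852, 794, 389 and 663 CPM.

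For the label of common lymphoid-like cells, the 7 markers other than the gate genes were read. Summed UMIs of gated and remaining cells were compared within libraries by edgeR's quasi-likelihood test, with the library as a block and Benjamini-Hochberg adjustment over 10623 genes, and a gene was called at an adjusted p under 0.05. In all, 941 genes (8.86%) were higher and 999 (9.4%) lower in gated cells. Tmem108, Cox6a2, Dntt, Rag1, Rag2 and Satb1 were called higher, and Flt3 was not called. The markers and gene lists were chosen with earlier results of these data known, so they are no independent check of the label. Within cells of 8000 to 16000 UMIs, where gated medians (11095 to 12060) lay close to remaining medians (10311 to 10651), 363 genes (3.7%) were higher and 321 (3.27%) lower.

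Tmem108, a transmembrane protein gene, was among the markers chosen here. It stood at 115, 124, 89.3 and 155 CPM in gated control, uninduced, 3-day and 6-day cells. In remaining cells it stood at 28.2, 23.4, 27.7 and 38.6 CPM. The lowest gated value was more than 2-fold the highest remaining value, and the log2 fold change was 2.05 ± 0.08 (SE of the fit to 4 libraries, edgeR adjusted p = 4.4e-89). Each ± is the standard error from the edgeR fit, which draws on all genes, and is not the spread between the 4 libraries. DESeq2, an alternative fit, gave wider errors for Hes1 (0.26 against 0.08) and Rbpj (0.22 against 0.06). Cox6a2, a tissue-restricted subunit of cytochrome c oxidase that is also high in plasmacytoid dendritic cells, stood at 189, 179, 207 and 221 CPM against 47.3, 39.7, 55.5 and 56.3 (log2 fold change 1.98 ± 0.07, edgeR adjusted p = 1.5e-104). Cells gated at full depth were also thinned to 4700 UMIs without gating them again. Cox6a2 was then found in 49.3% of gated and 15.1% of remaining cells. Among cells in which neutrophil, erythroid, megakaryocyte or basophil genes held over 1% of UMIs, 6.06% held it. Before thinning these shares were 73.3%, 19.2% and 6.80%, at median depths of 11590, 7120 and 5575 UMIs.

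The recombination machinery of antigen receptor genes was prominent. Dntt, which encodes the terminal transferase that adds bases at V(D)J joints, stood at 1797, 1839, 2420 and 1830 CPM in gated and 667, 588, 758 and 724 CPM in remaining cells, a log2 fold change of 1.47 ± 0.03 (edgeR adjusted p = 1e-177). It was present in nearly every gated cell, since 97.5% of thinned gated cells had a Dntt UMI (98.6% unthinned), against 74.1% (77.8%) of remaining cells and 16.7% (16.5%) of the cells rich in other cell type genes. Rag2, a subunit of the recombinase, stood at 39.6, 35.5, 37.0 and 41.1 CPM against 8.80, 6.93, 11.9 and 10.6, a log2 fold change of 2.05 ± 0.13 (edgeR adjusted p = 5.2e-40). The 4 gated levels of Rag2 lay within 6 CPM of each other. Rag1, the catalytic subunit, was scarcer at 5.60, 4.54, 10.9 and 11.2 CPM against 1.78, 1.12, 1.47 and 1.93 (2.16 ± 0.33, edgeR adjusted p = 7e-09) and rests on 5 to 21 UMIs in each library. Rag1 and Rag2 are neighbours on chromosome 2, 5752 bases apart and facing each other. Of 11 measured recombination and end joining genes 6 were called higher, the others being Xrcc6 (Ku70, an end-binding protein), Hmgb1 and Hmgb2, and Xrcc4 was called lower. In the window of 8000 to 16000 UMIs 5 of 11 were higher by edgeR, Hmgb2 not among them. The median log2 fold change was 0.13 there, against 0.41 in all cells. Xrcc4 was not called in the window or by DESeq2.

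Early B lineage genes were partly present. Ebf1, the transcription factor that specifies the B lineage, stood at 27.0, 50.7, 56.6 and 65.7 CPM in gated cells and 7.35, 7.13, 8.64 and 16.1 CPM in remaining cells, a log2 fold change of 2.21 ± 0.13 (edgeR adjusted p = 7.9e-50). The control library had the lowest gated Ebf1, and gated and remaining levels did not overlap. After thinning, 5.92% of gated control cells (2.87 to 10.6), 19.5% of uninduced cells (12.6 to 28.0), 20% of 3-day cells (9.05 to 35.7) and 21.0% of 6-day cells (14.9 to 28.2) held an Ebf1 UMI, against 1.41% to 2.57% of remaining cells. Unthinned, the gated shares were 14.5%, 30.4%, 23.8% and 30.6%, and the cells rich in other cell type genes held Ebf1 in 1.52% after thinning. Blnk, an adaptor of B cell receptor signalling, stood at 35.9, 37.8, 26.1 and 38.4 CPM against 9.41, 9.32, 7.16 and 12.6 (1.81 ± 0.13, edgeR adjusted p = 3.3e-32). Arpp21, a cyclic AMP-regulated phosphoprotein expressed in early lymphocytes, stood at 132, 123, 95.8 and 120 CPM against 37.8, 31.5, 37.3 and 38.1 (1.72 ± 0.08, edgeR adjusted p = 2.8e-72).

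Of 11 measured early B lineage genes 6 were higher (Ebf1, Rag1, Rag2, Blnk, Arpp21 and Bach2), Cd79b and Cd24a were lower, and Foxo1, Cd72 and Vpreb1 were not called; the median log2 fold change was 0.85, beside -0.0020 over all genes tested. The gate shapes this list, because it moves cells with Cd79a or Vpreb3 into the remaining cells. Without that condition, where 9.16% of all genes were higher and 9.06% lower, 13 of 14 measured genes were higher, Cd79b, Pax5, Igll1 and Vpreb1 among them (median 1.91). The lower calls of Cd79b and Cd24a were absent by DESeq2 (4.86% of all genes higher, 4.47% lower), in the window of like depth and after thinning with the gate applied again, and the median was 1.42 after thinning and 0.15 over 21 genes with no count filter. With the condition in place, gated cells had 0, 0, 0 and 2 UMIs of Pax5, the factor that commits cells to the B lineage, and none of Igll1, a surrogate light chain gene, as a description of what the gate left.

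Promoter sequences are shown for 3 of these genes, since Tmem108, Rag1 and Arpp21 were each higher in gated than in remaining cells in all 4 libraries and their windows hold letters that early B cell factors are known to bind. They are the 250 bases before an annotated start, 5′ to 3′ on the gene's strand, from RefSeq on GRCm38.p6, and capitals mark the motif. Tmem108 (chr9:103692808-103693057, minus strand) has 1 match to the EBF letters, TCCC and GGGA with any 2 bases between them, beginning 162 bases before the start. Rag1 (chr2:101649533-101649782, minus strand) has 1 match to the E protein letters CACCTG, read as CAGGTG on the other strand, and Arpp21 (chr9:112217352-112217601, minus strand) has 3.
Tmem108: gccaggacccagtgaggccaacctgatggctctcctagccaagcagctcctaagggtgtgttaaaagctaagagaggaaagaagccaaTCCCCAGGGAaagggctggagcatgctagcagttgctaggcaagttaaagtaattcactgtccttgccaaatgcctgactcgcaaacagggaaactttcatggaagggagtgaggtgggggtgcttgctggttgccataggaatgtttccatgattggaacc
Rag1: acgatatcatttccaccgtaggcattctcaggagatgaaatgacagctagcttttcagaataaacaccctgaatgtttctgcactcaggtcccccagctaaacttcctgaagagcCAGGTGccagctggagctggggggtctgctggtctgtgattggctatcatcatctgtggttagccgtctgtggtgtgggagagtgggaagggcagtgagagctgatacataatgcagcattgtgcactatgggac
Arpp21: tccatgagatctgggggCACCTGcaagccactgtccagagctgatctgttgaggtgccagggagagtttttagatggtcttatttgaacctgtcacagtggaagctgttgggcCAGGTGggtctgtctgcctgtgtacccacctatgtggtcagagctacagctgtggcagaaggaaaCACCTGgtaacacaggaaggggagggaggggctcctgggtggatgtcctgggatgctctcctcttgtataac

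Both strands were searched in 32851 promoter windows of this length. The EBF letters occurred in 0.779% of windows and the E protein letters in 17.2%. Tmem108 has 2 annotated windows, of which 1 holds the EBF match, and 4 of 9 Arpp21 windows hold an E protein match; which start the gated cells used was not measured. Among the 12 highest named genes 10 had a window, Blnk and Bfsp2 held the E protein letters, and Rag2, Dntt, Cmah and Mpeg1 held no match to these or to the STAT (TTCNNNGAA, 7.02% of windows) or RBPJ (TGGGAA, 21.6%) letters. The RBPJ letters occurred in 1 of 2 Ebf1 windows and in those of Nek2 and Rag1, where they are not in capitals above, and the STAT letters in 1 of 2 Tmem108 windows and in that of Il7r. A match describes letters in a window, not binding.

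Socs2, a feedback inhibitor of cytokine signalling that STAT5 induces, had the largest log2 fold change of the genes named by rule, 2.35 ± 0.16 (edgeR adjusted p = 2.8e-39). Its gated levels were 31.2, 43.1, 10.9 and 36.3 CPM against 4.63, 5.60, 4.02 and 10.5, and the 3-day value rests on 5 UMIs. The rest of the IL-7 signalling list did not follow: of 23 measured genes Socs2 alone was higher, and Socs3, Stat3, Crlf2, Il2rg, Foxo3, Mcl1, Jak1 and Pim1 were lower. Il2rg, which encodes the common gamma chain that pairs with IL-7 receptor alpha, stood at 49.9, 68.0, 82.8 and 55.5 CPM against 71.1, 80.2, 71.1 and 82.0, lower in 3 of 4 libraries (-0.40 ± 0.09, edgeR adjusted p = 5.6e-05). The STAT5 genes Stat5a and Stat5b and the survival gene Bcl2 were not called. In the window of 8000 to 16000 UMIs Foxo1, Pik3r1 and Socs2 of this list were higher and Stat3 alone was lower.

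**Figure D2:**
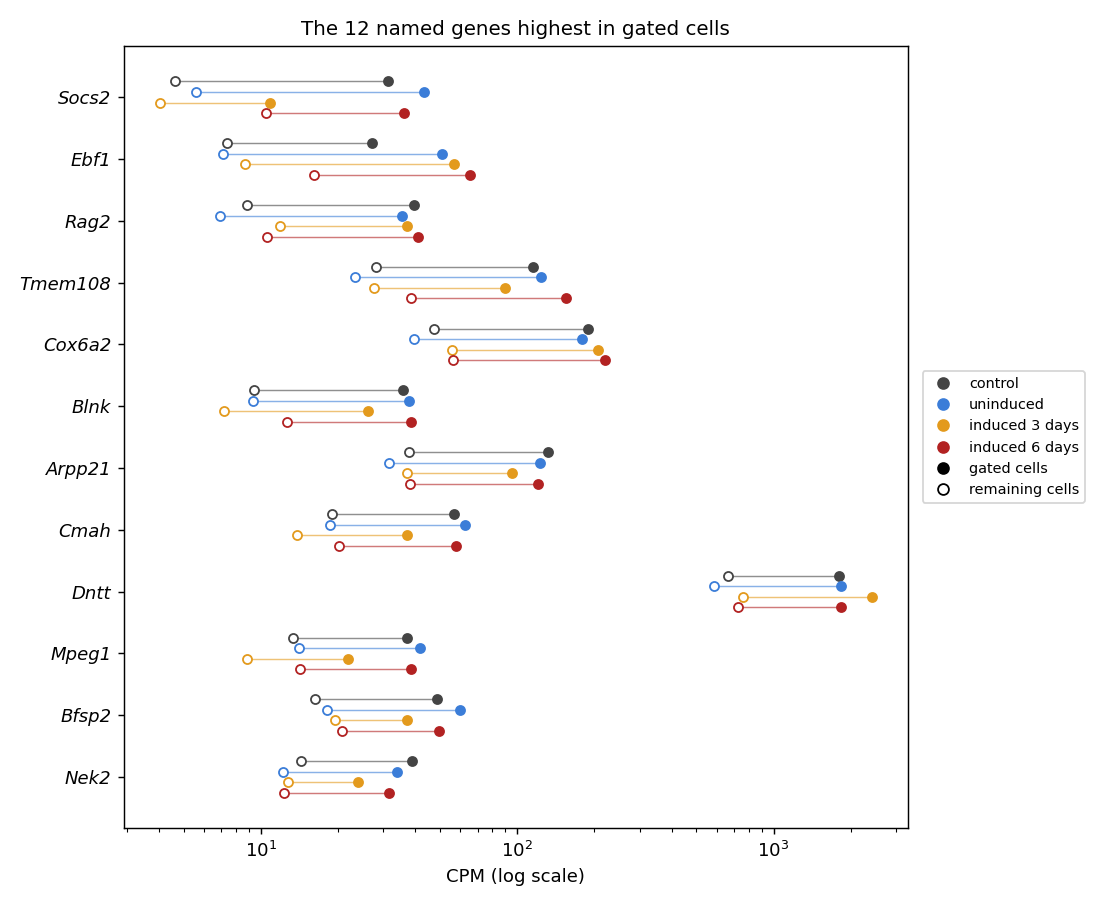
CPM (log axis) of the 12 genes with the highest fold changes by the naming rule, 1 line per library, filled circles for gated cells and open circles for remaining cells. In every gene and library the filled circle lies to the right of the open one.

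The remaining genes with the highest fold changes were Cmah, a sialic acid hydroxylase (1.56 ± 0.10), Mpeg1, the pore-forming perforin-2 (1.45 ± 0.13), Bfsp2, an intermediate filament gene (1.43 ± 0.11), and Nek2, a mitotic kinase (1.35 ± 0.13), all called by edgeR. Nek2 was 0.65 within the window of like depth. Lymphoid priming genes were higher in 14 and lower in 2 of 23 (median log2 fold change 0.34), the lower ones being Ccr9, a thymus homing receptor, and Cd52. Flt3, the LMPP cytokine receptor, was level at 223, 169, 218 and 227 CPM against 223, 192, 207 and 197 (0.00 ± 0.05, edgeR adjusted p = 0.99). Satb1, a chromatin organiser of lymphoid cells, was slightly higher at 213, 173, 170 and 190 CPM against 163, 148, 137 and 164 (0.26 ± 0.06, edgeR adjusted p = 9e-05), and lost the call without the control library (edgeR adjusted p = 0.066) and after thinning (edgeR adjusted p = 0.084).

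Lymphoid transcription factors were higher in 11 and lower in 4 of 27. After Ebf1 the largest was Ets1 (47.6, 40.1, 34.9 and 37.4 against 20.5, 16.6, 14.6 and 22.2 CPM; 1.06 ± 0.12), followed among the others by Bach2, Irf8, Id2, Ikzf1, Myb, Satb1, Zeb2, Mef2c and Tcf4. Ikzf2, Spi1, Pou2f2 and Sox4 were lower. Ikzf2, which encodes Helios, stood at 14.0, 22.7, 17.4 and 12.3 CPM against 43.6, 38.9, 31.8 and 34.7 (-1.32 ± 0.14, edgeR adjusted p = 4.2e-18). Tcf3, the E2A gene, was not called at 0.06 on the log2 scale (edgeR adjusted p = 0.64).

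Other lymphoid fates gave mixed counts. On the T lineage list 3 of 10 measured genes were higher (Cd6, Lck and Cd28) and Cd7 and Ccr9 were lower, of which neither was called lower by DESeq2 or in the window. Bcl11b, Cd3e and Il2ra, which mark committed T cell precursors, had no UMI in gated cells. Tcf7, the first T lineage factor downstream of Notch, had 18, 1, 0 and 0 gated UMIs and was not tested. On the NK and innate lymphoid list Il18r1 and Id2 were higher and Rora was lower of 7. On the dendritic cell list Cox6a2, Irf8, Id2 and Tcf4 were higher and Ly6c2, Ccr9 and Cst3 lower of 10, and Siglech, which defines plasmacytoid dendritic cells, had 14, 1, 0 and 1 gated UMIs. Homing and adhesion receptors were higher in 6 and lower in 2 of 13, with Ccr7 and Cxcr4 among the higher genes.

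**Figure D3:**
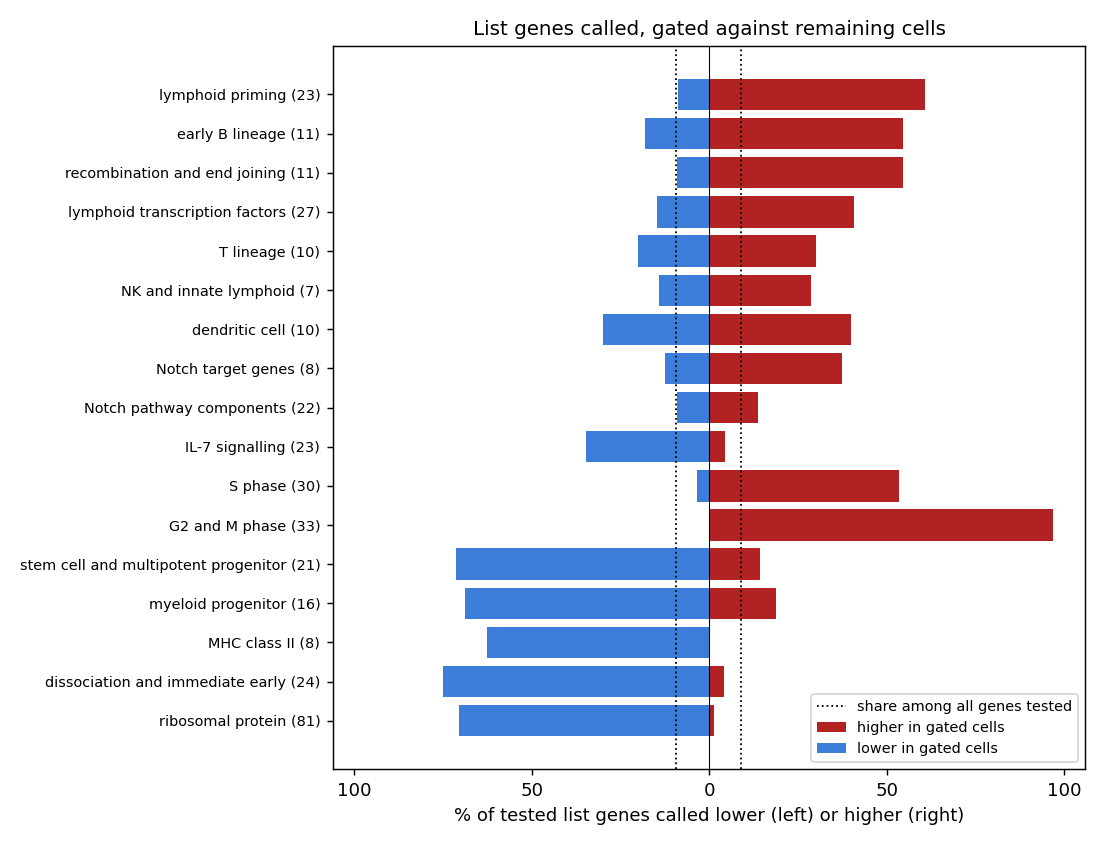
For each gene list (genes tested in brackets), the percentage of its tested genes called higher (red, right) or lower (blue, left) in gated than in remaining cells by edgeR. Dotted lines mark the shares among all genes tested, 8.86% higher and 9.4% lower; 14 of 23 lymphoid priming genes were higher and 15 of 21 stem cell genes lower.

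Genes of stem cells and multipotent progenitors were lower in 15 and higher in 3 of 21 (median log2 fold change -0.52). In the window of like depth 9 of 19 were lower and 3 higher (median -0.25), and after thinning 5 of 20 were lower, Hlf and Mecom among them in both. Hlf, a stem cell transcription factor, stood at 17.7, 21.9, 2.18 and 11.7 CPM in gated and 71.6, 74.1, 53.2 and 54.6 CPM in remaining cells (-2.10 ± 0.13, edgeR adjusted p = 3.4e-45). Mecom, which encodes EVI1, stood at 11.7, 12.9, 4.36 and 7.47 CPM against 42.6, 32.5, 23.6 and 31.1 (-1.83 ± 0.16), and gated and remaining levels of Hlf and Mecom did not overlap. The exceptions were Gfi1b, Cd48 and Mycn, of which Cd48 is known to be gained as stem cells mature. Myeloid progenitor genes were lower in 11 of 16 (6 of 14 in the window and 2 of 14 after thinning), with Prtn3 (neutrophil proteinase 3) at 71.3, 59.7, 69.7 and 47.0 CPM against 323, 294, 277 and 251 (-2.28 ± 0.07, edgeR adjusted p = 5e-119). Prss57, Irf8 and Plac8 of that list were higher. The summed list was higher in gated cells of each library, at 3324, 3517, 3557 and 3496 CPM against 2898, 3056, 3200 and 2982.

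Markers of other cell types were scarce in gated cells. The summed mature neutrophil and monocyte list held 115, 121, 179 and 146 CPM in gated cells and 1200, 3945, 4632 and 3509 CPM in remaining cells, and 10 of its 11 measured genes were called lower. The 8 lowest genes by the naming rule were S100a8, S100a9, Camp, Elane, Chil3, Ngp, Lcn2 and Wfdc21, all neutrophil genes. S100a9 stood at 5.60, 6.80, 21.8 and 14.9 CPM against 272, 908, 1030 and 792. The 103 cells in which other cell type genes held over 1% of UMIs, of which 1 was gated, were then left out, after which 957 of all genes (9.03%) were higher and 998 (9.42%) lower. Without them S100a9 was not called (-0.32, edgeR adjusted p = 0.29), and Lyz2 and S100a8 were the only 2 of 7 measured list genes called lower. The erythroid list had 5 of 6 genes lower and Tfrc higher, with summed levels of 126, 119, 139 and 682 CPM against 394, 926, 311 and 762, but in the window 4 of 5 were higher and 1 lower. Single cells carried much of this. At 6 days the richest gated cell held 376 of 379 Hba-a1 and 301 of 311 Hbb-bs UMIs, and the richest remaining control cell held 702 of 762 Hba-a1 UMIs. The megakaryocyte list had 2 of 3 lower, the basophil, eosinophil and mast cell list had 0 of 2 called by edgeR or DESeq2 (0 at an unadjusted p under 0.05), and the stroma and endothelium list had Pecam1 higher of 4. Summed levels of these last lists were low but slightly higher in gated cells of each library. The basophil list held 23.8, 18.9, 24.0 and 19.2 CPM against 14.2, 12.5, 19.6 and 17.3. The stroma list held 83.9, 86.2, 78.4 and 84.9 CPM against 74.3, 67.2, 63.9 and 69.9.

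Cell cycle genes were higher in gated cells, which were also the deeper ones. In all cells 32 of 33 measured G2 and M phase genes and 16 of 30 S phase genes were higher in gated cells, with Ung alone lower. Top2a, the mitotic DNA topoisomerase, stood at 429, 393, 370 and 436 CPM against 287, 226, 235 and 244 (0.69 ± 0.04, edgeR adjusted p = 2.1e-42). Within 8000 to 16000 UMIs 11 of 33 G2 and M genes were higher (median 0.25) and 0 of 30 S phase genes were called by edgeR (5 at an unadjusted p under 0.05; median 0.05). In the same window 14 of 23 lymphoid priming genes and 7 of 11 early B lineage genes were called higher. In cells thinned to 4700 UMIs, where 1.23% of all genes were higher and 1.57% lower, 11 of 23 and 5 of 11 genes of these lists were higher, as were 10 of 32 G2 and M genes. Immediate early genes were lower in 18 of 24, including Fos (699, 1214, 845 and 614 CPM against 1036, 1746, 1358 and 872; -0.59 ± 0.03) and Jun (-0.58 ± 0.04), and Hsp90aa1 was the 1 higher gene. MHC class II genes were lower in 5 of 8, interferon response genes in 6 of 20 (Ifi27l2a higher), ribosomal protein genes in 57 of 81 with a median of only -0.09, and mitochondrially encoded genes in 3 of 12 with mt-Nd1 higher. Several of these counts fell at like depth. In the window 10 of 23 immediate early genes were lower (median -0.19, against -0.50 in all cells) and 4 of 8 MHC class II genes. Of 18 interferon response genes 0 were lower there by edgeR (4 differed in either direction at an unadjusted p under 0.05), and DESeq2 in all cells called 1 of 20 lower. After thinning 15 of 23 immediate early, 1 of 8 MHC class II and 1 of 17 interferon response genes were lower.

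The Notch pathway was examined because the study manipulates RBPJ. Of 22 measured pathway components 3 were higher (Notch1, Maml3 and Rbpj) and 2 lower (Psen2 and Mfng), near the shares of 8.86% and 9.4% among all genes. The median log2 fold change of this list was -0.11. Notch1 and Maml3 were also called higher by DESeq2, in the window of like depth and after thinning with gating repeated. Rbpj was not: its log2 fold change of 0.38 ± 0.06 was 0.50 by DESeq2 (adjusted p = 0.16), 0.02 in the window (edgeR adjusted p = 0.95) and -0.48 after thinning (edgeR adjusted p = 0.030). Psen2 lost its call in all 3 of these settings and Mfng in the window and after thinning. Notch1, the receptor of lymphoid progenitors, stood at 84.4, 93.0, 61.0 and 84.9 CPM in gated and 53.6, 48.2, 42.5 and 51.4 CPM in remaining cells (0.71 ± 0.08, edgeR adjusted p = 4.5e-15). Maml3, a coactivator of the RBPJ and Notch complex, was at 63.9, 64.3, 52.3 and 63.5 CPM against 39.1, 38.9, 34.9 and 44.9 (0.60 ± 0.09). Of 8 measured Notch target genes Notch1, Cd28 and Hes1 were higher and Myc was lower. Cd28, a T cell costimulatory receptor, was at 12.1, 35.5, 21.8 and 13.3 CPM against 8.57, 19.1, 10.8 and 9.56, the highest level in both sets being uninduced (0.67 ± 0.16, edgeR adjusted p = 0.00049). Hes1, the transcriptional repressor switched on directly by Notch, was at 78.3, 34.8, 50.1 and 183 CPM against 90.9, 16.9, 43.2 and 123, higher in 3 of 4 libraries (0.28 ± 0.08, edgeR adjusted p = 0.0046). It was not called by DESeq2 (0.36, adjusted p = 0.58), but was 0.96 in the window (edgeR adjusted p = 7e-21) and 0.74 after thinning (edgeR adjusted p = 9.6e-05). Cd28 lost its call after thinning (edgeR adjusted p = 0.49), and Myc by DESeq2 (adjusted p = 0.14), in the window (edgeR adjusted p = 0.68) and after thinning (edgeR adjusted p = 0.77).

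Gated cells were next compared with the other lymphoid set of the sort, 302 cells that were not gated and held 2 or more UMIs of Ccr9 and Cd7; 17 gated cells also met that second condition. Of 5751 genes 766 (13.3%) were higher and 805 (14%) lower in gated cells by edgeR. Clec12a, an inhibitory C-type lectin receptor, stood at 215, 190, 250 and 193 CPM in gated and 54.8, 29.7, 9.56 and 20.7 CPM in Ccr9 or Cd7 cells (2.62 ± 0.16, edgeR adjusted p = 7e-24). The other 5 highest were Ly86, Gng12, Mpeg1, Rag2 (2.10 ± 0.30) and Hmga2. Of 9 measured myeloid progenitor genes 5 were higher (Mpo, Ctsg, Irf8, Prss57 and Plac8) and 3 lower (Cebpa, Cebpb and Csf2ra). Both sets expressed Dntt, at 1065, 733, 965 and 754 CPM in Ccr9 or Cd7 cells, and gated cells had more (1.09 ± 0.06). Ebf1 was higher in gated cells (1.81 ± 0.28), although by little in the control library, where it was 27.0 against 24.9 CPM. Cells with Cd79a or Vpreb3 were not removed from the Ccr9 or Cd7 set, and its control part included a cell with 33 Ly6d UMIs. The richest remaining control cell held 14 of 157 Ebf1 UMIs, and whether single cells carried the 24.9 CPM was not tested.

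The 6 lowest genes in that comparison were Gria2, Ddit4l, Gm43603, Tmem158, Bank1 and Wfdc18. Tmem158, a transmembrane protein gene, stood at 9.33, 6.05, 4.36 and 9.07 CPM in gated and 131, 130, 105 and 159 CPM in Ccr9 or Cd7 cells (-4.13 ± 0.19, edgeR adjusted p = 2.4e-31). Hes1 was also lower in gated cells in 4 of 4 libraries, against 277, 42.7, 100 and 295 CPM (-1.14 ± 0.13, edgeR adjusted p = 1.6e-11), as was Flt3, at 319, 280, 320 and 271 CPM in Ccr9 or Cd7 cells (-0.54 ± 0.09). All 5 measured recombination genes were higher, 3 of 3 T lineage genes (Tox, Lat and Lck) and 20 of 22 immediate early genes were lower. Lymphoid priming genes were split, with 9 higher and 8 lower of 21 (median log2 fold change 0.03). Ccr7, Lax1 and Bcl11a were among the lower ones. Depth differed, with medians of 5356, 5367, 5305 and 5905 UMIs in Ccr9 or Cd7 cells, and 19 of 26 S phase and 21 of 31 G2 and M genes were higher in gated cells. With both sets thinned to 4700 UMIs and chosen again, 131 of 2312 genes (5.67%) were higher and 199 (8.61%) lower, and 3 of 15 S phase and 1 of 13 G2 and M genes were higher. In those cells 4 of 4 recombination genes were higher and 17 of 19 immediate early genes lower, and neither of the 2 T lineage genes measured was called by edgeR (1 at an unadjusted p under 0.05).

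Gated cells differed among themselves by Ly6d. The 178 gated cells with a Ly6d UMI were compared with the 308 that had Il7r only, a split chosen after seeing the data. Depth was alike, with medians of 10768 to 12229 UMIs in Il7r-only cells, 10637 to 11949 in cells with both genes and 9639 to 12080.5 in cells with Ly6d only. Of 5836 genes 17 (0.291%) were higher and 13 (0.223%) lower with Ly6d by edgeR. Mzb1, an endoplasmic reticulum chaperone of B cells, stood at 31.5, 29.1, 73.4 and 29.7 CPM with Ly6d and 2.60, 4.26, 3.23 and 6.67 CPM with Il7r only (2.93 ± 0.38, edgeR adjusted p = 5.3e-08). The lowest value with Ly6d was over 4-fold the highest without, though the Il7r-only values rest on 1 to 8 UMIs. Cells with 8 or more Ly6d UMIs held 11 of 19, 13 of 18, 7 of 11 and 13 of 20 of the Mzb1 UMIs found with Ly6d. Without these cells Mzb1 had too few UMIs to be tested, and stood at 14.7, 11.99, 40.7 and 14.3 CPM on 4 to 8 UMIs a library.

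Ebf1 stood at 57.9, 85.7, 133 and 117 CPM in cells with Ly6d and 14.9, 19.9, 19.4 and 36.7 CPM in Il7r-only cells (1.94 ± 0.19, edgeR adjusted p = 1.6e-11). Leaving out the cells with 8 or more Ly6d UMIs lowered this to 1.31 (edgeR adjusted p = 0.00052). Hes1 stood at 124, 51.8, 100 and 263 CPM with Ly6d and 60.4, 19.9, 25.9 and 137 CPM with Il7r only, higher in 4 of 4 libraries, the RBPJ-deficient uninduced library included (1.07 ± 0.14, edgeR adjusted p = 1.3e-07). It was called with each library left out (1.02 to 1.22) and within the window of like depth (1.28), but not without the library block (edgeR adjusted p = 0.77). Few cells carried Hes1 in 2 libraries. All gated uninduced cells held 46 Hes1 UMIs, 11 of them in the richest cell, and gated 3-day cells held 23 UMIs in 9 cells. Ebf1, which specifies B cells, and Hes1, which Notch induces, were thus both higher in the gated cells with Ly6d, compared as a set and not cell by cell.

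Tmem108 (159, 171, 167 and 192 against 97.4, 82.3, 51.7 and 135 CPM; 0.78 ± 0.13) and Dntt (0.31 ± 0.05) were also higher with Ly6d, and both lost the call without the uninduced library. The other 12 higher genes were Arl5c, Cd74, Mgst2, Ly6a, Mta3, Ly6e, Xrcc6, Arpp21, Cdkn1a, Cox6a2, Crip1 and Myl10. Rag2, Blnk and Socs2 were not called (-0.14, 0.13 and 0.02 on the log2 scale, edgeR adjusted p = 0.97, 0.97 and 0.99). The 13 lower genes included Wfdc17, a myeloid secreted protein gene, at 56.3, 42.0, 20 and 52.0 CPM with Ly6d against 129, 126, 129 and 125 CPM with Il7r only (-1.40 ± 0.16, edgeR adjusted p = 1.8e-09). Prtn3 was at 48.0, 32.3, 26.7 and 25.3 CPM against 80.5, 83.8, 90.6 and 59.2 (-1.12 ± 0.19), and the progenitor transcription factors Lmo2 and Hoxa9 were also lower. The 47 cells with Ly6d and no Il7r UMI differed from Il7r-only cells in 7 higher genes (0.218%) and 19 lower genes (0.592%) of 3210 tested by edgeR. Tmem108, Cox6a2 and Ly6e were among the higher ones, and 8 of 23 measured G2 and M genes among the lower ones, such as Ccnb1 (cyclin B1, -1.35 ± 0.31). With all Ly6d cells 0 of 31 measured G2 and M genes were called by edgeR (8 at an unadjusted p under 0.05) or by DESeq2.

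**Figure D4:**
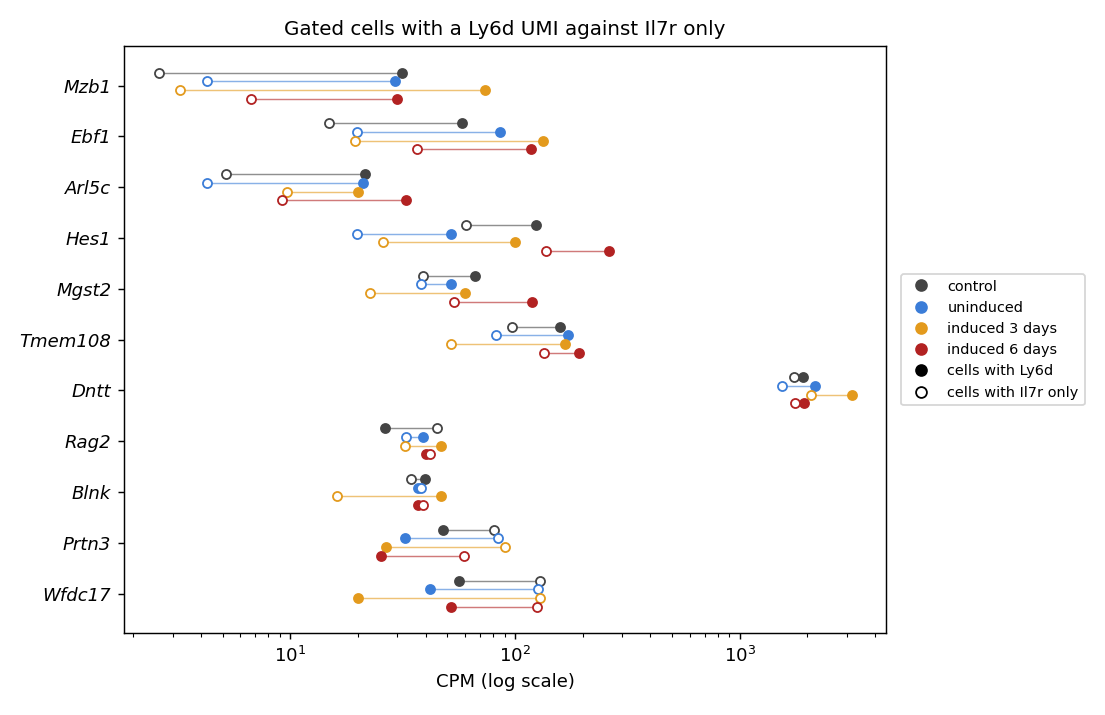
CPM (log axis) of 11 genes in gated cells with a Ly6d UMI (filled) and with Il7r only (open), 1 line per library. Mzb1, Ebf1 and Hes1 lie to the right with Ly6d in all 4 libraries, Wfdc17 and Prtn3 to the left, and Rag2 and Blnk show no common direction.

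Across the groups the targeted gene was read first. Rbpj stood at 25.2, 16.6, 950 and 497 CPM in gated control, uninduced, 3-day and 6-day cells and at 17.0, 10.9, 488 and 483 CPM in remaining cells. The uninduced library was the lowest in both sets and the induced libraries were the highest. The uninduced gated level was 0.660 of control, with an interval of 0.383 to 1.10 that includes no difference. It rests on 22 UMIs, 7 of them in the richest cell. Remaining cells held more UMIs, 213 uninduced and 364 control, at 10.9 against 17.0 CPM. Which part of the gene the uninduced allele lacks is not given in the sources used here. At 3 days gated cells held 57.1-fold the uninduced level (37.2 to 92.1), and 1 cell held 82 of the 436 UMIs. A Rbpj UMI was found in 23 of 42 gated cells at 3 days and 95 of 157 at 6 days.

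The gated cells of uninduced and control libraries were alike in most genes. Among the 1366 genes that reached 100 CPM in one of the 2 gated sets, 1 (0.0732%) was 2-fold higher and 1 (0.0732%) 2-fold lower in uninduced cells, against 0.62% and 0.0775% in remaining cells. A gene was counted when it was 2-fold apart after 10 CPM had been added to both levels, whereas the folds printed are plain ratios of CPM. The higher gene was Klf2, a Kruppel-like factor of lymphocyte quiescence, at 134, 415, 368 and 141 CPM in control, uninduced, 3-day and 6-day gated cells. Uninduced gated cells thus held 3.10-fold the control level (2.68 to 3.59), remaining cells gave 3.27-fold, and the 6-day gated level was 1.05-fold control (0.887 to 1.25). The lower gene was mt-Atp8 (141 against 323 CPM), whose transcript overlaps that of mt-Atp6. Of 18 immediate early genes measured 10 were 1.5-fold or more higher in uninduced gated cells, against 13 of all 1366 genes, and their median log2 ratio was 0.59 in gated and 0.55 in remaining cells. Early B lineage genes had 2 members measured at this level and neither was 1.5-fold apart. The conditional exact intervals of these ratios cover counting error only, and library and group cannot be told apart.

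Hes1 stood at 78.3, 34.8, 50.1 and 183 CPM over the 4 groups of gated cells. Uninduced gated cells held 0.444 of the control level (0.313 to 0.618), whereas remaining cells held 0.186. The uninduced gated level rests on 46 UMIs in 19 cells, of which the 10 richest held 80.4%. At 3 days the gated level was 1.44-fold the uninduced level, with an interval of 0.833 to 2.43 that includes no difference. At 6 days it was 5.25-fold the uninduced (3.85 to 7.31) and 2.33-fold the control level (1.93 to 2.82), while remaining cells gave 7.29-fold and 1.35-fold. A Hes1 UMI was found in 26.7%, 16.5%, 21.4% and 51.6% of gated cells, and after thinning in 20.1%, 10.6%, 12.5% and 33.1%. In remaining cells the thinned shares were 18.2%, 5.56%, 9.92% and 23.6%, and in cells rich in other cell type genes 1.52% over all libraries.

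**Figure D5:**
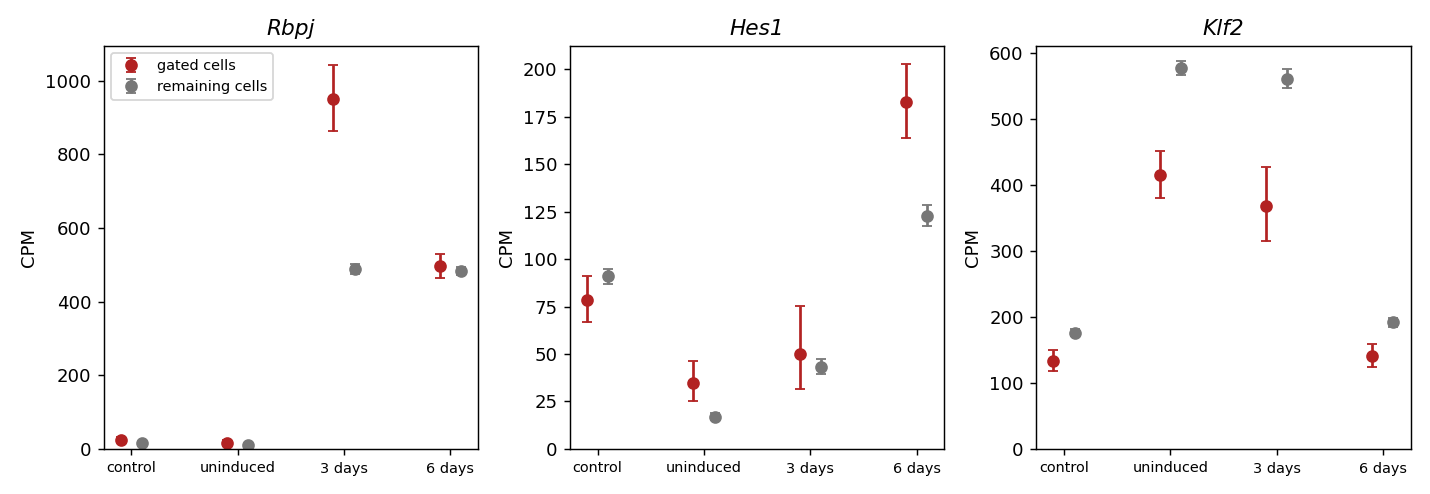
CPM of Rbpj, Hes1 and Klf2 in gated (red) and remaining (grey) cells of each library, with 95% Poisson intervals for counting error. Gated Hes1 was 34.8 CPM uninduced and 183 CPM at 6 days, and Klf2 was 415 and 368 CPM in the uninduced and 3-day libraries against 134 and 141 CPM in the control and 6-day libraries.

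Against uninduced cells, gated cells at 3 days had 2 of 1412 genes (0.142%) 2-fold higher and 4 (0.283%) 2-fold lower, against 0.156% in each direction in remaining cells. The higher genes were Rbpj and Hspa1a, an inducible heat shock gene with a near-identical neighbour, Hspa1b, that counting could confuse with it. Hspa1a stood at 516 against 53.7 CPM, 9.62-fold (7.35 to 12.7), and remaining cells gave 7.85-fold. The lower genes were Xist (786 against 1607 CPM, 0.489 of it in gated and 0.916 in remaining cells), Nr4a1 (78.4 against 177), Ifitm1 (47.9 against 119) and Pim1 (161 against 374). Pim1, a kinase gene induced by STAT5, was at 0.431 of the uninduced level (0.333 to 0.551) in gated and 0.633 in remaining cells, and at 6 days its gated level was 276 CPM. The 3-day gated set is the smallest, with 459081 UMIs against 1322770 to 2144402 in the others.

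At 6 days 6 of 1325 genes (0.453%) were 2-fold higher and 2 (0.151%) 2-fold lower than in uninduced gated cells, against 0.24% in each direction in remaining cells. Rbpj (29.9-fold), Hes1 and mt-Atp8 were higher, and Klf2 and Klf6 were lower. The other 3 higher genes were the haemoglobin genes Hba-a1, Hba-a2 and Hbb-bs, which 1 gated cell supplied: it held 376 of 379, 242 of 244 and 301 of 311 of their UMIs. Against control, gated cells at 6 days had 6 of 1347 genes (0.445%) 2-fold higher and 0 (0%) lower, against 0.702% and 0% in remaining cells. These were Rbpj (19.7-fold), Hes1, the same 3 haemoglobin genes and Ifi27l2a, an interferon-induced gene, at 333 against 151 CPM (2.21-fold, 1.93 to 2.53). The 2 comparisons of 6-day cells share their 6-day library, and those of uninduced cells share the uninduced library, so their results are not independent. Dntt was 1.02-fold control in both uninduced (0.973 to 1.08) and 6-day (0.973 to 1.07) gated cells and 1.32-fold uninduced at 3 days (1.22 to 1.41).

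Below the level required for counting folds, a few lymphoid genes differed between gated sets beyond counting error. Ebf1 in gated cells was 1.87-fold the control level in uninduced (1.30 to 2.71) and 2.43-fold in 6-day cells (1.76 to 3.38). Remaining cells gave 0.970 and 2.19. Gated Ebf1 rests on 58, 67 and 123 UMIs in 25, 35 and 48 cells (control, uninduced, 6 days). The 10 richest cells held 70.7%, 52.2% and 43.1% of them. Cd28 was 2.93-fold the control level in uninduced gated cells (1.78 to 4.93), and 2.23-fold in remaining cells. Rag2 was 0.896 of control in uninduced (0.614 to 1.29) and 1.04-fold at 6 days (0.752 to 1.43), intervals that include no difference. Bcl2, which IL-7 receptor signalling sustains, did reach the level for counting folds but was not 2-fold apart. In uninduced gated cells it was 0.610 of the control level (0.508 to 0.730), and 0.816 in remaining cells. Of 4 IL-7 signalling genes measured at that level, Bcl2 alone was 1.5-fold or more lower, against 16 of all 1366 genes.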

How the data were processed

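The deposited matrices hold UMI counts per gene and barcode, which the authors supplied unnormalised; Seurat and mm10 are named without role or version, per the submitters' processing notes, and no source used here names the aligner or counter. The log2 values the authors deposited per cell served only to give the kept cells. Totals of kept cells were 23504158, 20952799, 10647894 and 17455692 UMIs (control, uninduced, 3 days, 6 days). Members and gene lists were chosen with earlier results of these data known. The gate genes were left out of every test. UMIs were summed per library and cell class and compared with edgeR 4.0.16 in R 4.3.3 (filterByExpr, TMM, library as block); DESeq2 1.42.0 was an alternative. Levels are CPM of the summed UMIs. Between groups, genes reaching 100 CPM and 2-fold apart after adding 10 CPM were listed, and plain CPM ratios carry conditional exact intervals. Thinning used 4700 UMIs. Shares of gated cells, tests and list counts after thinning used cells gated again. Shares of cells with a UMI of Cox6a2, Dntt, Ebf1 or Hes1 kept the full-depth gate. Named genes were the 12 highest and 8 lowest called fold changes at 20 CPM or more with the same sign in 4 libraries (6 each in the other fits), the markers, and up to 3 called genes each way of 25 lists; haemoglobin, antigen receptor and sex-linked genes were left out of the ranking. Other genes, such as those of the Ly6d split, Pax5 and Xist, were named after their values were seen. The fits were tested on simulated data. No column of another sample was present.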

Additional observations from a re-analysis of the deposited data

Results flagged for a closer look

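Several gated to remaining ratios pointed in opposite directions in different libraries; these differences were not tested, since each group is 1 library. Hba-a1 in gated cells was 0.0392 of the remaining level in control (0.00807 to 0.115, 3 UMIs) and 0.0204 in uninduced cells, and 1.25-fold at 6 days. Hba-a2 was 0.0087 of it in uninduced cells (0.00022 to 0.0486, 1 UMI) and 1.51-fold at 6 days. A single gated cell at 6 days held 376 of the 379 Hba-a1 UMIs and 242 of the 244 Hba-a2 UMIs, and the genes are near-identical copies. Ly6a, a stem and lymphoid surface antigen gene, was 0.556 of the remaining level in control (0.446 to 0.686; 42.9 against 77.2 CPM) and 1.45-fold at 3 days (1.08 to 1.92; 115 against 79.4 CPM). Barcodes of 10 to 100 UMIs, which hold RNA outside cells, had UMIs of the genes that exclude a cell from the gate. Cd79a was at 16.1 CPM there at 6 days and 1.74 CPM in control. Vpreb3 was at 12.9 CPM in uninduced, 19.0 CPM at 3 days and 6.26 CPM at 6 days, and had no UMI in control.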

How the results depend on the processing

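Genes higher and lower in gated than in remaining cells numbered 941 and 999, and 363 and 321 in cells of 8000 to 16000 UMIs, 115 and 147 in thinned cells, 516 and 475 by DESeq2, 498 and 467 without the library block and 291 and 379 with a UMI of each gate gene required. A gate of 3 UMIs gave 618 higher. Of the main calls 308 and 297 were called again in the depth window, where 892 of 931 higher and 890 of 934 lower genes that could be tested had the same sign. Leaving out each library gave 624 to 895 and 703 to 954, lowest higher count without control (624). Against Ccr9 or Cd7 cells the 766 and 805 became 269 and 362 by DESeq2 and 131 and 199 when thinned, and 504 to 704 and 626 to 802 with a library left out (504 without control). For Ly6d-only against Il7r-only cells the 7 and 19 became 3 and 7 by DESeq2, 2 and 6 without the block, 1 and 0 thinned, 41 lower with no count filter, 17 higher with all Ly6d cells, and 2 to 9 and 5 to 26 with a library left out (4 and 9 without control, 2 and 5 without uninduced). With all Ly6d cells the 17 and 13 became 9 and 1 by DESeq2, 11 and 3 without the block, 9 and 8 without cells of 8 or more Ly6d UMIs, and 8 to 19 and 2 to 20 with a library left out (8 and 2 without uninduced, 20 lower without control, 4 lower without 6 days).

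Gated shares were 13.96%, 10.5%, 8.90% and 16.5% with a gate of 1 UMI, 3.45%, 2.24%, 1.78% and 4.32% with 3, and 2.52%, 2.25%, 1.65% and 3.93% thinned. Genes 2-fold apart in gated cells numbered 2 (uninduced against control), 6 (3 days against uninduced), 8 and 6 (6 days against uninduced and control); thinned counts were 19, 115, 23 and 13, a minimum of 50 CPM gave 6 and 17 for the first pair and of 200 CPM 4 and 3 for the second, and 5 and 3 remained of the second pair's counts without the cell rich in other cell type genes. The sign turned for the erythroid median (1.15 in the depth window), the stroma median (0.27 in the depth window, 0.11 with a gate of 1 UMI, 0.20 with no Cd79a and Vpreb3 condition, 0.24 thinned), Camp (0.074 without cells of other cell type genes) and Elane (1.60 with no Cd79a and Vpreb3 condition). Flt3, uncalled and near 0, was -0.0011 by DESeq2, -0.0304 with no Cd79a and Vpreb3 condition, -0.00223 without the block, -0.022 without a filter, -0.00920 without other cell types, -0.000733 without shared barcodes, and -0.078 to 0.0558 with a library left out (-0.078 without 6 days). Over 23 named genes there were 409 values, each of 1 gene under 1 setting. Of these 8 kept the direction and lost the call and 9 turned sign. No paired analysis was possible between groups because each group has 1 library. The cause of these shifts was not tested. Precision is limited for genes of few UMIs, such as Rag1 and Mzb1, and by the 42 gated cells at 3 days.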
